A study of Mus musculus with 12 samples.

Results

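Adrenergic receptors bind noradrenaline and adrenaline, and 7 of their genes (Adra1a, Adra1b, Adra1d, Adra2a, Adra2b, Adra2c and Adrb1) were followed here through 12 RNA-seq libraries of mouse medial prefrontal cortex. The 7 genes were taken by symbol from a table of 55401 gene IDs, and other genes of the family were not analysed here. All 7 were listed, and all 7 passed the filter on low counts that left 21958 genes for testing. Male mice had gone through 2 weeks of extinction of a conditioned place preference, in which an animal that had learned to prefer a drug-paired chamber loses that preference. The first group had an adeno-associated virus (AAV) that knocks down the serotonin receptor 5-HT6R, and morphine. The second had an AAV with a scramble sequence and morphine, and the third had the same scramble AAV and saline. Each group had 4 libraries, every animal carried a virus, and no group combined the knockdown with saline. The stated aim was to find genes and pathways that respond to lower 5-HT6R in extinction of the morphine preference. Strain, age, the promoter of the viruses and the cells they reached are not given in the labels, nor is it said that each library is 1 animal, so the p-values rest on the spread of these samples alone, and that spread may be technical.

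Noradrenaline reaches the cortex from axons of the locus coeruleus in the brainstem. Alpha-1 receptors couple mainly to Gq and phospholipase C, alpha-2 receptors to Gi/o, which lowers cyclic AMP, and beta receptors to Gs, which raises it. In the prefrontal cortex, alpha-2A receptors are known for their part in working memory, while alpha-1 and beta receptors are known for their part in stress and in emotional memory. Alpha-2A and alpha-2C receptors also sit on noradrenergic axons, where they limit release, but the RNA of that pool is in the brainstem and is not expected in these libraries.

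Total counts per library ran from 41483220 to 65739423. Htr6, the gene of 5-HT6R, had 4.49, 5.30, 3.82 and 5.46 CPM (counts scaled to library size) in the libraries labelled knockdown, 5.30, 5.16, 4.82 and 5.58 CPM with scramble and morphine, and 5.45, 6.92, 4.35 and 7.98 CPM with scramble and saline. These ranges overlapped. Knockdown over scramble under morphine gave a log2 fold change of -0.13 (SE 0.18, 95% interval of the fold 0.696 to 1.2, edgeR adjusted p = 0.823), so no loss of Htr6 RNA was detectable and "knockdown" names the label throughout. Summed markers of cortical excitatory neurons, mostly counts of Slc17a7, ran from 2070 to 2530, 2280 to 2570 and 2350 to 2440 CPM in that order of groups. The ribosomal RNA locus CT010467.1 took 4.57 to 9.38% of a library with the knockdown, 2.38 to 3.04% with scramble and morphine and 3.58 to 5.63% with scramble and saline.

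The receptor RNAs differed widely in level. Per kilobase of merged exon, Adra1d averaged 19.3 CPM over the 12 libraries (range 14.7 to 25.2), above 88.9% of the tested genes. Adra1b followed at 9.71 CPM per kb (7.49 to 12.1) and Adrb1 at 9.2 (6.15 to 10.6). The lowest Adra1d library lay above the highest Adra1b library, whereas Adra1b and Adrb1 overlapped and Adra1b was the higher in 8 of 12 libraries. The gap between Adra1d and Adra1b rested on the lengths, 1899 bases for Adra1d and 3382 for Adra1b. In CPM, before division by length, their ranges overlapped, and the lowest Adra1d library, at 27.9 CPM, lay within the range of Adra1b. The alpha-2 genes were lower, with Adra2c at 4.62 CPM per kb (2.6 to 6.97) and Adra2a at 3.67 (2.8 to 4.17). Adra2c lay above Adra2a within 11 of 12 libraries, although their ranges overlapped. Adra1a stood at 1.86 CPM per kb (1.33 to 2.75) and Adra2b at 0.0377 (0 to 0.109), above only 0.826% of the tested genes. The place of Adra1a rested on the length used, because its merged exons span 8728 bases and its longest coding transcript 4282. With the longest coding transcript as the length, a choice made after seeing the data, Adra1a stood at 3.8 CPM per kb, its range overlapped that of Adra2a, and Adrb1 came before Adra1b at 10.5 against 9.86.

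**Figure D1:**
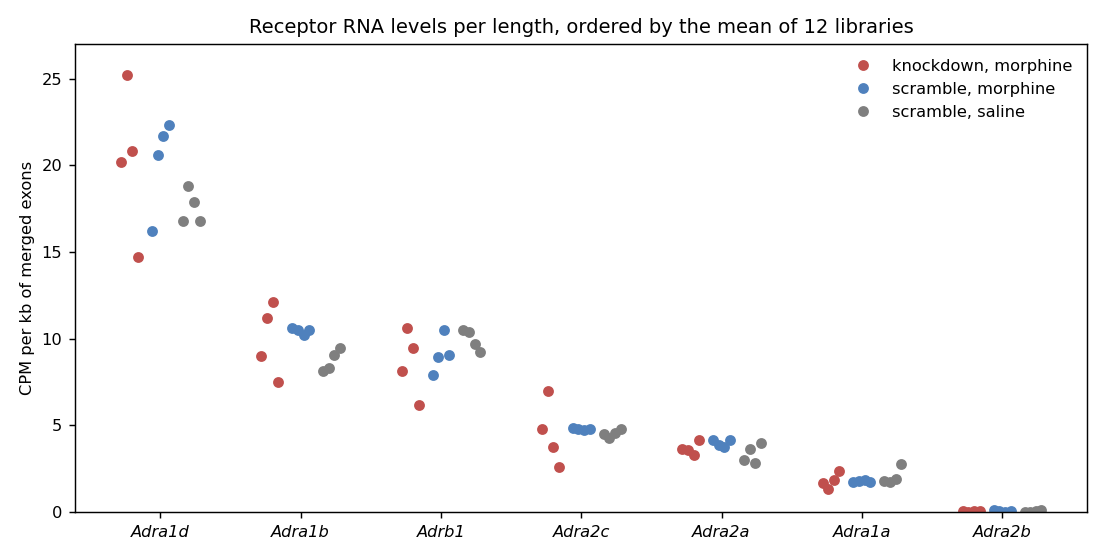
Level of each receptor RNA per library, in CPM per kilobase of merged exons on a linear axis, with genes ordered by their mean over 12 libraries and groups by colour, the knockdown on the left of each gene. Adra1d lies above every other receptor in all libraries, and Adra2b lies at or near 0.

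By class, alpha-1 genes made up most of the summed receptor level per kilobase. Their share was 65.5 ± 1.54% with knockdown and morphine, 64.4 ± 1.32% with scramble and morphine and 61.3 ± 1.24% with scramble and saline (SD, n = 4 each). The alpha-2 genes took 16.9 ± 2.04, 17.6 ± 1.68 and 17.1 ± 1.22% in the same order of groups, and Adrb1 17.5 ± 0.906, 18.1 ± 1.25 and 21.6 ± 1.68%. The alpha-1 share was 64.1 to 67.7% with the knockdown and 59.8 to 62.8% with scramble and saline, without overlap. The Adrb1 share was 16.4 to 18.5% with the knockdown and 19.5 to 23.5% with scramble and saline, also without overlap. In CPM, however, each of the receptors overlapped between the knockdown and saline groups. With scramble and morphine the shares were 62.7 to 65.7% for alpha-1 and 17.3 to 19.9% for Adrb1, and both overlapped each other group. The shares of a library add up to a fixed total and so are not separate observations, they rest on the exon lengths, and they are given with no test. The summed level was 48.8 ± 8.93, 50.3 ± 3.38 and 46.2 ± 1.16 CPM per kb in the same order of groups, which overlap.

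**Figure D2:**
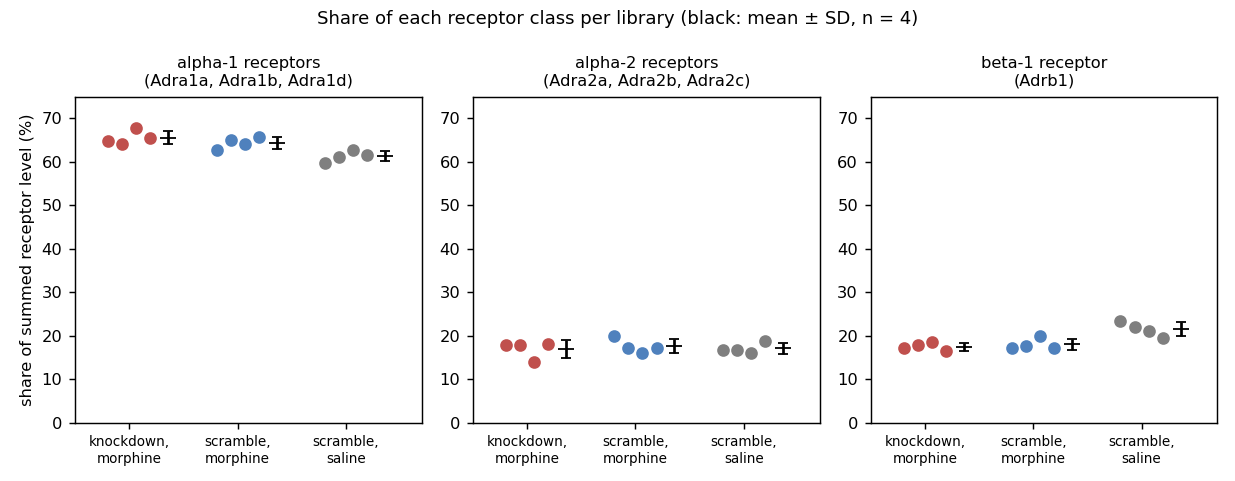
Share of the summed receptor level (CPM per kilobase, all 7 genes) taken by alpha-1 genes, alpha-2 genes and Adrb1 in each library, in percent, with the mean and SD of 4 libraries in black. The Adrb1 share lies at 16.4 to 18.5% in the knockdown libraries, below the 19.5 to 23.5% of the saline libraries. The shares were not tested, and Adrb1 in CPM overlaps between those groups.

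Adra1b encodes the alpha-1B receptor (ENSMUSG00000050541, mm10 chromosome 11, 43774606 to 43901210, minus strand). It had 30.4, 38.0, 41 and 25.3 CPM in knockdown replicates 1, 2, 3 and 5. It had 35.9, 35.6, 34.5 and 35.4 CPM in scramble morphine replicates 1, 3, 4 and 5, against 27.5, 28.0, 30.5 and 32.0 CPM in scramble saline replicates 2, 3, 4 and 5. All 4 scramble morphine libraries lay above all 4 saline libraries, while the knockdown libraries lay on both sides of the scramble morphine values. It was the only one of the 7 receptors whose groups did not overlap in any of the comparisons, where 3.32% of all tested genes did not overlap between morphine and saline with scramble (1.55% higher with morphine and 1.77% lower). Its log2 fold change there was 0.26 (SE 0.12), and the edgeR adjusted p over all genes was 0.999.

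Adra1d encodes the alpha-1D receptor (chromosome 2, 131545850 to 131562283, minus strand), and an exon of the gene Gm14285 overlaps it on the other strand. The counts may not have used the strand, but Gm14285 itself had 12 to 42 counts a library against 1671 to 2830 for Adra1d. Adra1d had 38.3, 47.9, 39.4 and 27.9 CPM in the knockdown libraries, 30.7, 39.0, 41.1 and 42.4 with scramble and morphine, and 32.0, 35.7, 34.1 and 31.9 with scramble and saline. The knockdown group held both the highest and the lowest value of the gene. Adra1a, the gene of the alpha-1A receptor (chromosome 14, 66635251 to 66771168, plus strand), had 14.3, 11.6, 16.0 and 20.4 CPM in the knockdown libraries. It had 15.1, 15.4, 16.2 and 15.2 CPM with scramble and morphine and 15.6, 14.9, 16.6 and 24.0 with scramble and saline. Its highest values were in the replicates numbered 5 of the knockdown and saline groups.

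Adra2a encodes the alpha-2A receptor (chromosome 19, 54044151 to 54048982, plus strand). It had 17.6, 17.3, 16.0 and 20 CPM in the knockdown libraries, 19.9, 18.5, 18.2 and 20.1 with scramble and morphine, and 14.5, 17.6, 13.6 and 19.3 with scramble and saline. Only 1 saline library reached the scramble morphine range. Adra2c, the gene of the alpha-2C receptor (chromosome 5, 35278319 to 35281763, plus strand), had 16.6, 24.0, 12.9 and 8.97 CPM in the knockdown libraries. It had 16.8, 16.4, 16.3 and 16.5 CPM with scramble and morphine, against 15.4, 14.8, 15.7 and 16.5 with scramble and saline. The scramble groups were tight and the knockdown libraries spread to both sides of them.

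Adra2b, the gene of the alpha-2B receptor (chromosome 2, 127363208 to 127367221, plus strand), was barely detected, with 106 counts over all libraries. It had 5, 0, 12 and 9 counts in the knockdown libraries, 26, 14, 0 and 9 with scramble and morphine, and 0, 0, 8 and 23 with scramble and saline. A count of 0 allows up to 3 counts by counting error alone. No difference in Adra2b was detectable at this depth: the 95% interval of its fold for knockdown over scramble under morphine ran from 0.0919 to 3.9.

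Adrb1 encodes the beta-1 receptor (chromosome 19, 56722199 to 56733113, plus strand). It had 27.5, 35.7, 32.0 and 20.8 CPM in the knockdown libraries, 26.7, 30.2, 35.5 and 30.7 with scramble and morphine, and 35.5, 35.2, 32.7 and 31.1 with scramble and saline. All 4 saline libraries were above 31 CPM, and each of the morphine groups had libraries below every saline library.

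**Figure D3:**
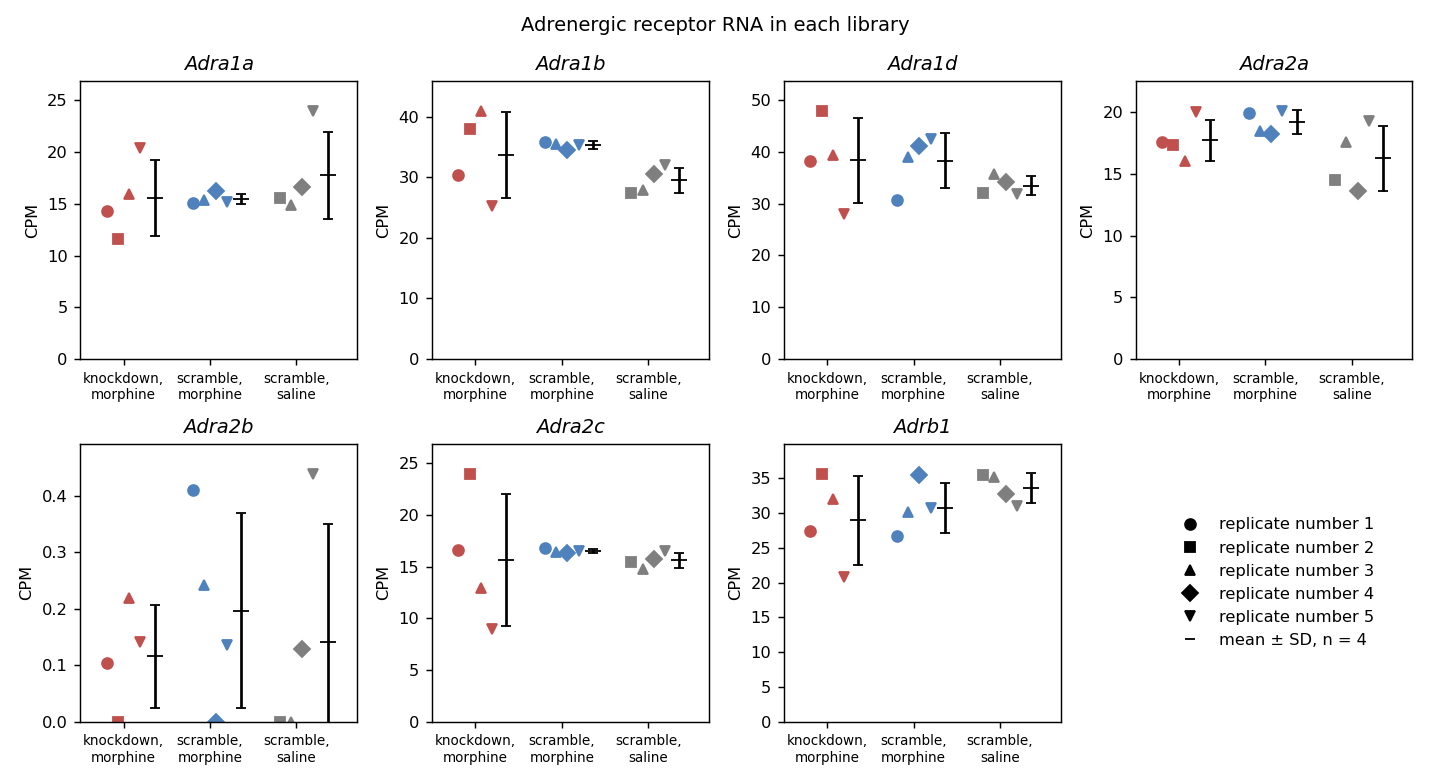
CPM of each receptor in each library, with the knockdown group on the left, marker shapes for the replicate number, and the mean and SD of 4 libraries in black; each panel has its own linear axis from 0, where the Adra2b saline bar is cut off. Adra1b with scramble and morphine (34.5 to 35.9 CPM) lies above scramble and saline (27.5 to 32.0 CPM), and the knockdown libraries of Adra2c span 8.97 to 24.0 CPM.

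RefSeq promoter entries on GRCm38.p6 were found for 5 receptors (Adra1b, Adra2a, Adra2b, Adra2c and Adrb1). The 250 bases before the start site are shown for the 3 whose window lies outside the annotated gene, since they set the receptor with separated groups (Adra1b) beside the one that was highest with saline by share (Adrb1) and the one near 0 counts (Adra2b). Capitals mark matches, on either strand, to a GC box (GGGCGG) or to the core of the cyclic AMP response element (TGACG). Also searched were the full element TGACGTCA, which contains that core, the TATA box TATAAA and the E-box CACGTG.
Adra1b: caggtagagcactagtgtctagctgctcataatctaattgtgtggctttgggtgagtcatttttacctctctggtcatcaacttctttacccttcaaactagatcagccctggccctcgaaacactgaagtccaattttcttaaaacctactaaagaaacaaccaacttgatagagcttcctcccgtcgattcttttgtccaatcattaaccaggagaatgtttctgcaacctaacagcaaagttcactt
Adrb1: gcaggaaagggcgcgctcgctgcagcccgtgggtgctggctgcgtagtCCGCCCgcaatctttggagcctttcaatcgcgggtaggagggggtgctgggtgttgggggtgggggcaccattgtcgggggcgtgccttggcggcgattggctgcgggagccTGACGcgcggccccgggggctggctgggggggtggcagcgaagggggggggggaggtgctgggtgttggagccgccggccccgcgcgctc
Adra2b: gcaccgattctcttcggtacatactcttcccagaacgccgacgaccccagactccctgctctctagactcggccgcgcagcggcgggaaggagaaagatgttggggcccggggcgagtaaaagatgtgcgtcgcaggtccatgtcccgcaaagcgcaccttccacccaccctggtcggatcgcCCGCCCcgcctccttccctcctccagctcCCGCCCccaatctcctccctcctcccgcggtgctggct
These are chr11:43901238-43901487 on the minus strand, chr19:56721867-56722116 on the plus strand and chr2:127362929-127363178 on the plus strand. The Adra1b window shown held none of the 5 motifs, had a GC content of 41.6% and 3 CpG pairs. A second Adra1b start in RefSeq lies inside the gene, and its window held 1 GC box, with a GC content of 72.8% and 22 CpG pairs. The windows of Adra2a and Adra2c did not lie outside the annotated gene and are not shown. That of Adra2a held 1 TATA box, 1 E-box, 1 GC box and 1 match to the core of the cyclic AMP response element. Its GC content was 67.6%, with 22 CpG pairs. That of Adra2c held 1 E-box, with a GC content of 53.6% and 6 CpG pairs. The Adrb1 window held 1 GC box and 1 TGACG match, with a GC content of 74.0% and 24 CpG pairs, and the Adra2b window held 2 GC boxes, with 66% and 23. Among all 32851 promoter windows of that length, the median GC content was 52.4%, a GC box was found in 32.7%, TGACG in 17.8%, TATAAA in 12.4%, CACGTG in 6.02% and TGACGTCA in 1.55%. A GC-rich window was thus found at the receptor with the lowest RNA as well as at Adrb1.

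In the comparison of knockdown with scramble, both with morphine, none of the receptors differed beyond the spread between libraries. The edgeR quasi-likelihood test called 0 of 7 receptors at an adjusted p under 0.05, as it called 0% of the 21958 genes, and 0 of 7 had an unadjusted p under 0.05, where 12% of all genes did. DESeq2 and limma voom also called 0 receptors. The receptors' median log2 fold change was -0.08, with 5 of 7 below 0, beside a median of 0.004 and 49.3% below 0 for all genes. Adra2a averaged 17.7 ± 1.64 CPM in knockdown and 19.2 ± 0.986 CPM in scramble libraries (SD, n = 4 each), a log2 fold change of -0.12 (SE 0.11, edgeR adjusted p = 0.723) with a 95% interval of the fold from 0.782 to 1.09. Adrb1 had a log2 fold change of -0.09 (SE 0.13), Adra2c of -0.08 (SE 0.21), Adra1b of -0.07 (SE 0.12), Adra1a of 0.01 (SE 0.17) and Adra1d of 0.001 (SE 0.14). The 95% intervals of these 5 folds lay between 0.693 and 1.29, so folds within those bounds remain compatible with these data. The bounds are for each gene alone and are not the limit of detection after adjustment over all genes. The directions of Adra1b, Adra2c and Adrb1 turned without knockdown replicate 5 (log2 fold changes of 0.04, 0.11 and 0.04), and Adra1a turned to -0.15.

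**Figure D4:**
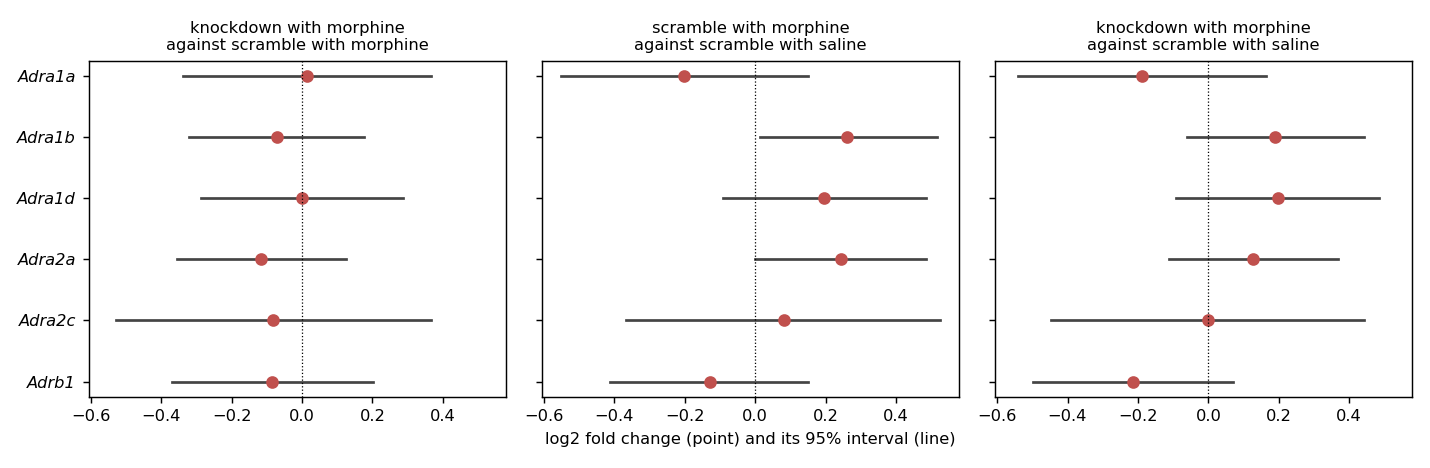
Log2 fold change (point) and its 95% interval (line) from the edgeR fit for 6 receptors in each comparison; a value above 0 means higher in the group named first. Adra2b is left out because its interval is several times wider, from 0.0919 to 3.9 as a fold in the left comparison. The intervals that lie above 0 or touch it are those of Adra1b and Adra2a for morphine against saline.

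For Adra2c, Adra1b, Adra1d and Adrb1, the coefficient of variation over 4 libraries was larger in the knockdown group than in either scramble group. The coefficient of variation of Adra2c was 41% over the 4 knockdown libraries, 1.2% with scramble and morphine and 4.49% with scramble and saline. For Adra1b it was 21.2, 1.75 and 7.3%, for Adra1d 21.4, 13.7 and 5.53%, and for Adrb1 22.1, 11.7 and 6.18%, in the same order of groups. The other receptors were not clearly widest with the knockdown. Adra1a stood at 23.8, 3.23 and 23.7%, about as wide with saline as with the knockdown, and Adra2a at 9.26, 5.13 and 16.4% and Adra2b at 78.2, 88 and 146% were widest with saline. Over the 6001 genes that averaged 10 to 50 CPM, the median was 11.3, 7.3 and 8.48%, so the knockdown libraries also spread more in general. The receptors were not tested for a difference in spread. Adra2c varied more within the knockdown group than 98.4% of those 6001 genes, and Adra1a more than 91.6% (95.3% within scramble and saline). Adra1b, Adra1d and Adrb1 varied more than 87.8 to 89.3% there. Within scramble and morphine, Adra2c lay above only 0.533% and Adra1b above 1.47%. In that group Adra1d still lay above 87.5% and Adrb1 above 80.7%. Beside genes of like level, Adra1d thus stood about as high in both morphine groups.

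Knockdown replicate 2 had the highest Adra1d, Adra2c and Adrb1 of its group and the lowest Adra1a, and knockdown replicate 5 had the lowest Adra1b, Adra1d, Adra2c and Adrb1 and the highest Adra1a and Adra2a. In the same libraries, summed astrocyte markers stood at 3740 CPM in replicate 2 and 5430 in replicate 5, at either end of the group. Summed markers of cortical excitatory neurons stood at 2530 and 2070 CPM in those libraries, again at the ends of the group, and those of oligodendrocytes at 545 and 1030 CPM. Such sums rest mainly on the most abundant genes. In the knockdown group Slc17a7 averaged 1750 of the 2250 CPM of the excitatory list, and Slc1a2 2130 of the 4330 CPM of the astrocyte list. Against scramble and morphine, 6 of 8 excitatory markers were below 0 and 2 above. Against scramble and morphine, 6 of 8 astrocyte markers and 7 of 7 oligodendrocyte markers had a log2 fold change below 0, with medians of -0.16 and -0.43. In the same comparison, 9 of 9 mural and fibroblast markers (pericytes, smooth muscle, meninges) and 5 of 5 of endothelium were above 0, with medians of 0.42 and 0.23. The mural and fibroblast list summed to 242 to 382 CPM in the knockdown group, 198 to 257 with scramble and morphine and 187 to 248 with scramble and saline, and against saline 9 of 9 were above 0 with a median of 0.82. Against saline, 6 of 8 astrocyte markers were above 0 (median 0.11), and 7 of 7 oligodendrocyte markers were below 0 (median -0.40). Markers of striatal projection neurons summed to 128 to 147 CPM with the knockdown. They summed to 157 to 185 CPM with scramble and morphine and 158 to 185 with scramble and saline. That separation rested mainly on Ppp1r1b, which averaged 50 CPM with the knockdown and 79.3 CPM with scramble and morphine. The whole list averaged 138 and 169 CPM in those groups. Against scramble and morphine, 4 of 8 striatal markers were above 0 and 4 below. No marker on these lists passed the edgeR test in either comparison. None of the markers on these lists was at 0 in all libraries. In tissue RNA, fewer cells of a type and less RNA per cell cannot be told apart. With the astrocyte marker mean as a covariate, Adra2c had a log2 fold change of -0.23 and Adrb1 of -0.19 for knockdown over scramble under morphine (edgeR adjusted p = 0.72 and 0.562), and the part of the other markers was not tested. With the share at CT010467.1 as a covariate, Adra2c stood at -0.58 (edgeR adjusted p = 0.941). That share was higher in every knockdown library than in every scramble morphine library. Covariate and group can therefore hardly be told apart in that fit.

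**Figure D5:**
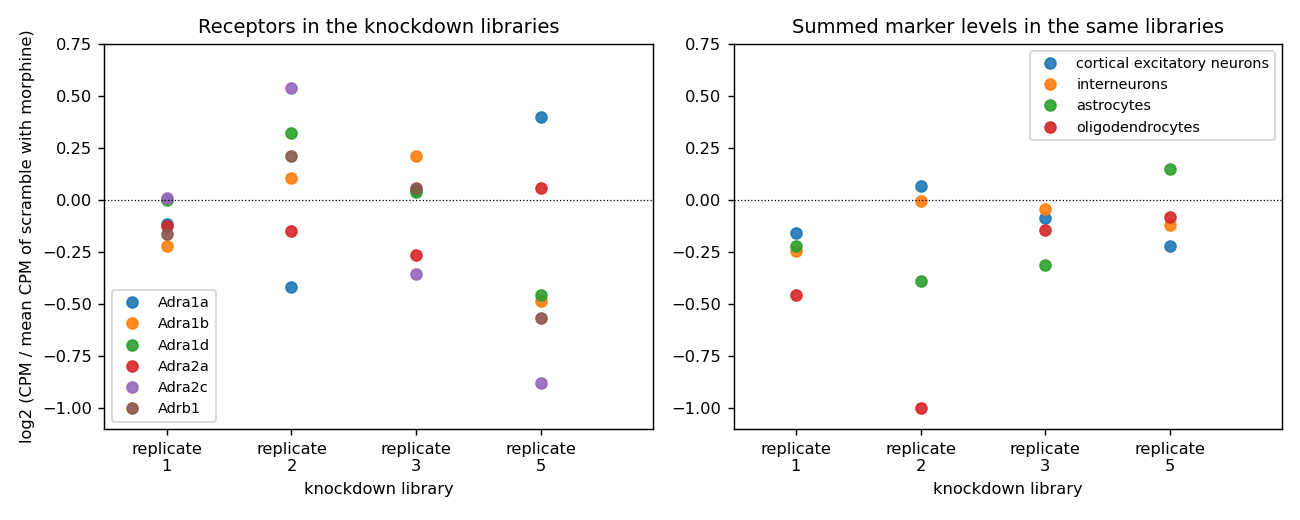
The 4 knockdown libraries, by replicate number, each relative to the mean of scramble with morphine on a log2 scale: 6 receptors on the left and the summed markers of 4 cell types on the right. In replicate 5 Adra2c, Adrb1, Adra1b and Adra1d lie lowest while Adra1a and the astrocyte markers lie highest.

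The comparison of morphine with saline, both with scramble virus, sets mice given morphine beside mice given saline, after the 2 weeks of extinction. The drug and the preference learned with it cannot be told apart here. The edgeR test called 0 of 7 receptors and 0% of all genes. Without adjustment, 2 of 7 receptors had a p under 0.05, both higher with morphine, where 3.48% of all genes had such a p in either direction and 1.67% in that one. They were Adra1b, at 35.3 ± 0.619 against 29.5 ± 2.16 CPM (SD, n = 4 each; fold 1.20, 95% interval 1.01 to 1.43, edgeR unadjusted p = 0.0431), and Adra2a, at 19.2 ± 0.986 against 16.2 ± 2.67 CPM (fold 1.18, 95% interval 1 to 1.4, edgeR unadjusted p = 0.0459). Both had an edgeR adjusted p = 0.999, and over the alternatives the adjusted p was 0.635 or more for Adra1b and 0.647 or more for Adra2a. The unadjusted p did not stay under 0.05 throughout: over the alternatives it ran from 0.00199 to 0.162 for Adra1b, highest with the CT010467.1 covariate, and from 0.00868 to 0.34 for Adra2a, highest with the astrocyte covariate. Both were above 0 in all 23 alternatives, but these refit the same libraries and are no separate evidence for the direction. DESeq2 and limma voom called 0 receptors.

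Adra1d had a log2 fold change of 0.20 (SE 0.14) in this comparison and Adra2c of 0.08 (SE 0.21), while Adra1a had -0.20 (SE 0.17) and Adrb1 -0.13 (SE 0.13), each with an edgeR adjusted p = 0.999. The Adra1a value rested on scramble saline replicate 5 and was -0.02 without it. The receptors' median was 0.20, with 5 of 7 above 0, beside a median of -0.001 and 49.5% above 0 for all genes. Of the astrocyte markers, 0 of 8 passed the test and 8 of 8 had a log2 fold change above 0, with a median of 0.19; their summed level was 4380 to 5130 CPM with morphine and 3190 to 5160 CPM with saline, which overlap. Blood and endothelial markers lay on the other side, with 5 of 5 below 0 on each list and medians of -0.73 and -0.12, and 0 passed. Their sums overlapped too: blood markers summed to 118 to 187 CPM with morphine and 96.9 to 415 CPM with saline. Endothelial markers summed to 180 to 213 and 197 to 270 CPM. Of mural and fibroblast markers 8 of 9 were above 0, and of oligodendrocyte markers 6 of 7. Of oligodendrocyte precursor markers 4 of 5 were below 0. With the astrocyte marker mean as a covariate, Adra2a had a log2 fold change of 0.10 in place of 0.24, while Adra1b had 0.35 in place of 0.26. The share at CT010467.1 was lower in every scramble morphine library than in every saline library. With it as a covariate, Adra1b and Adra2a stood at 0.22 and 0.30, but covariate and group can hardly be told apart here.

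In the comparison of the knockdown group with the saline group, where virus and drug differ together, the edgeR test called 0 of 7 receptors and 0.0137% of all genes. Unadjusted, 0 of 7 had a p under 0.05 where 9.35% of all genes did, 0 of 7 had groups that did not overlap where 4.34% did, and DESeq2 and limma voom called 0. This comparison shares its libraries with both others and is no further evidence. The log2 fold changes were 0.20 for Adra1d (SE 0.14), 0.19 for Adra1b (SE 0.12), 0.13 for Adra2a (SE 0.11), 0 for Adra2c (SE 0.21), -0.19 for Adra1a (SE 0.17) and -0.21 for Adrb1 (SE 0.13). Adrb1 averaged 29.0 ± 6.41 CPM in knockdown and 33.6 ± 2.08 CPM in saline libraries (SD, n = 4 each), with a 95% interval of the fold from 0.708 to 1.05 (edgeR adjusted p = 0.656). Leaving out knockdown replicate 5 brought the edgeR adjusted p of Adra1b to 0.142, its lowest over the alternatives, at a log2 fold change of 0.30. The receptors' median was 0 beside -0.002 for all genes.

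Genes that supply noradrenaline, carry the receptor signal or regulate the receptors were read from the same fit. Of 64 such genes, 62 were tested, and 0 passed in any comparison. For knockdown against scramble under morphine, 6 of 62 were higher and 8 of 62 lower with an edgeR unadjusted p under 0.05. These are larger shares than the 5.87 and 6.17% of all genes. The lists were not tested as sets. For morphine against saline under scramble there were 1 of 62 higher and 2 of 62 lower, beside 1.67 and 1.82% of all genes. For the knockdown group against the saline group there were 4 of 62 and 5 of 62, beside 4.97 and 4.37% of all genes.

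Most markers of noradrenergic neurons were near 0 in this tissue. Th, the first enzyme of catecholamine synthesis, which dopaminergic neurons also express, was the exception at 51 to 186 counts a library, or 1.27 to 3.17 CPM. Dbh, the enzyme that makes noradrenaline from dopamine, had 6 to 59 counts a library, and Slc6a2, the noradrenaline transporter, had 0 to 30 counts with 5 libraries at 0. The transcription factor Phox2a was at 0 in 9 of 12 libraries. In contrast, the degrading enzymes Maoa and Maob stood at 27 to 38.6 and 20.7 to 33.6 CPM.

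Of the supply list, 9 of 11 genes were tested, and for knockdown over scramble under morphine their median log2 fold change was -0.25, with 7 below 0. Slc29a4, a low-affinity monoamine transporter, averaged 3.9 ± 2.21 CPM in knockdown and 9.4 ± 0.806 CPM in scramble libraries (SD, n = 4 each), a log2 fold change of -1.26 (SE 0.38, edgeR adjusted p = 0.309). These groups did not overlap, as was so for 5.85% of all genes (2.59% higher and 3.26% lower). Set against the saline group, the knockdown value of Slc29a4 was -1.22 (SE 0.38, edgeR adjusted p = 0.378). Maob, a monoamine oxidase of astrocytes, stood at 32.2 ± 1.3 CPM with morphine and 27 ± 4.24 CPM with saline under scramble (SD, n = 4 each), a log2 fold change of 0.26 (SE 0.12, edgeR adjusted p = 0.999), and Maoa had -0.14 (SE 0.10, adjusted p = 0.999).

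In the Gq arm that serves alpha-1 receptors, 6 of 11 genes were above 0 and 5 below for knockdown over scramble under morphine, with a median of 0.05. Plcb4, a phospholipase C, stood at 45.6 ± 6.33 CPM in knockdown and 60.2 ± 5.01 CPM in scramble libraries (SD, n = 4 each), a log2 fold change of -0.40 (SE 0.10, edgeR adjusted p = 0.264). Gnaq, the Gq alpha subunit, had 0.22 (SE 0.08, adjusted p = 0.324). Against the saline group, the knockdown values were -0.39 for Plcb4 (SE 0.10, adjusted p = 0.309) and -0.39 for Plcb1 (SE 0.19, adjusted p = 0.556), and for morphine against saline under scramble the protein kinase C gene Prkca had 0.14 (SE 0.11, adjusted p = 0.999). In the Gi/o arm that serves alpha-2 receptors, 3 of 8 genes were above 0, with a median of -0.02. The inhibitory alpha subunits Gnai3 and Gnai2 had values on opposite sides of 0, at -0.30 (SE 0.10, adjusted p = 0.32) and 0.41 (SE 0.14, adjusted p = 0.327). The potassium channel subunit Kcnj9 had -0.17 (SE 0.07, adjusted p = 0.467) and Gnai3 -0.23 (SE 0.10, adjusted p = 0.488) for the knockdown group against the saline group. Gnai1 and Gnao1 had -0.07 (SE 0.06) and 0.05 (SE 0.05) for morphine against saline under scramble, each with an adjusted p = 0.999. In the Gs arm that serves beta receptors, 7 of 16 genes were above 0 with a median of -0.02, among them below 0 the protein kinase A subunits Prkacb at -0.38 (SE 0.14, adjusted p = 0.355) and Prkar2b at -0.16 (SE 0.07, adjusted p = 0.362). Against the saline group, the knockdown values were -0.18 for Prkar2b (SE 0.07, adjusted p = 0.405) and 0.46 for the channel Hcn2 (SE 0.24, adjusted p = 0.613). The cyclase Adcy6 and Prkacb had 0.09 (SE 0.08) and 0.12 (SE 0.15) for morphine against saline under scramble, each with an adjusted p = 0.999.

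Among receptor regulators, 12 of 18 genes were above 0 for knockdown over scramble under morphine, with a median of 0.11. Arrb1, beta-arrestin 1, which binds activated receptors and ends their coupling to G proteins, stood at 413 ± 12.3 CPM in knockdown and 368 ± 4.63 CPM in scramble libraries (SD, n = 4 each), a log2 fold change of 0.17 (SE 0.05, edgeR adjusted p = 0.275). The 4 knockdown libraries of Arrb1 lay above all libraries of scramble with morphine and of scramble with saline, in which it averaged 374 ± 6.44 CPM; against saline 4.34% of all genes did not overlap, 2.18% higher and 2.16% lower. Its log2 fold change against saline was 0.14 (SE 0.05, adjusted p = 0.378). Magi2, a scaffold protein, had 0.18 (SE 0.07, adjusted p = 0.331). Akap12, an anchoring protein for protein kinase A, had 0.46 (SE 0.12, adjusted p = 0.301) for the knockdown group against the saline group. For morphine against saline with scramble, the phosphodiesterases Pde4b and Pde4d, which break down cyclic AMP, had -0.17 (SE 0.07) and -0.17 (SE 0.08), each with an adjusted p = 0.999.

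The receptors did not share 1 profile over the 12 libraries. Likeness was measured as the mean absolute difference between z-scored log2 CPM profiles, for which the median over 13746 genes was 1.05 to 1.11 for the 6 better detected receptors. The closest pair of receptors was Adra1b and Adra1d at 0.618, followed by Adra1d and Adra2c at 0.647 and Adra2c and Adrb1 at 0.688. Adra1a and Adra1d, both alpha-1 genes, were among the least alike at 1.36, and Adra2a and Adrb1 stood at 1.40. The genes nearest to each receptor were closer than any other receptor was. They were Gnaz (0.263) and Sncb (0.275) for Adrb1, Ap1b1 (0.296) and Reep6 (0.314) for Adra1d, and Hectd3 (0.305) and Tmem208 (0.325) for Adra2c. For Adra2a they were Sardh (0.336) and Suclg2 (0.359), for Adra1a St6galnac3 (0.337) and Ccdc96 (0.341), and for Adra1b Tmem234 (0.396) and Rnls (0.398). Adra2b, at counts near 0, was nearest to Bmf (0.326) and Zfp526 (0.387). These libraries share their group and depth structure, and the nearest of many genes is close by selection, so the values are descriptive.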

How the data were processed

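RNA was measured in 12 libraries, 4 in each of 3 groups, named by the treatment in the labels, with replicate numbers from the titles. The authors deposited whole-number counts per gene; per the labels' protocols these came from poly(A)-selected, dUTP-marked paired-end libraries. The submitters' processing notes name mm10, edgeR, DESeq2, StringTie 1.3.4d, HISAT2 2.0.4 and cutadapt 1.9 with no role, so the counts may be StringTie estimates. Neither the annotation release nor the use of strand is given here.

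Of 55401 gene IDs, 55141 matched a symbol. Coordinates and exon lengths came from GENCODE mouse release M21, the same assembly as mm10, and promoters from RefSeq (GRCm38.p6). Counts were filtered by filterByExpr (minimum 10), scaled by TMM and tested in edgeR 4.0.16 (R 4.3.3) with a robust quasi-likelihood model of 1 mean per group over all 12 libraries (biological coefficient of variation 23.2%, residual degrees of freedom 9). Tests are two-sided, with Benjamini-Hochberg adjustment over all 21958 genes and a threshold of 0.05. Intervals of folds are at 95%. Profiles used log2(CPM + 0.5) and genes of at least 1 CPM. Alternatives were other scalings and filters, DESeq2 1.42.0, limma 3.58.1 voom with weights, a fit to the compared groups, a replicate block, covariates, and omission of each library. Simulated counts were used to test the steps. Libraries within groups differed beyond sampling noise (chi-square per gene of at least 13.1).

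All 7 receptors were named. Of each pathway list, members that passed, otherwise up to 2 with the smallest p and at least 1 CPM, were named; these are printed as values, and a few are not reported here. The 2 nearest genes of each receptor were named by profile. Receptors, lists and rules were chosen with earlier results of these data known.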

Additional observations from a re-analysis of the deposited data

How the results depend on the processing

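No receptor was called in any of the 3 comparisons under any alternative. Over all genes, calls for knockdown against scramble with morphine numbered 0 with edgeR, 2 with no low-count filter, 2 with the replicate block, 164 with DESeq2, 1 with limma voom and 0 to 375 with 1 library left out (375 without knockdown replicate 5, 4 without scramble saline replicate 4, 2 without knockdown replicate 3, 1 without knockdown replicate 2 or scramble saline replicate 5). For morphine against saline with scramble they numbered 0, but 1 with the compared groups only, 1 with the replicate block and 4 with DESeq2. For the knockdown group against the saline group they numbered 3, but 0 with library totals only, the replicate block, the CT010467.1 covariate or limma voom, 5 with no low-count filter or the compared groups only, 147 with DESeq2 and 0 to 55 with 1 library left out. There the count was 55 without knockdown replicate 5, 7 without scramble morphine replicate 4, 1 without scramble saline replicate 3 and 0 without any other library. The cause was not tested.

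Between knockdown and scramble with morphine, receptor values near 0 turned sign. Adra1a (0.01) was -0.045 with library totals, -0.015 with limma voom and -0.151 to 0.13 with 1 library left out. Adra1b (-0.07) was 0.019 with the CT010467.1 covariate and -0.182 to 0.039 with 1 library left out. Adra1d (0.001) was -0.07 with library totals, -0.016 with no filter, -0.028 with the replicate block, -0.112 with the CT010467.1 covariate, -0.101 with the astrocyte covariate and -0.124 to 0.123 with 1 library left out. Adra2c and Adrb1 ran from -0.365 to 0.107 and from -0.2 to 0.041 with 1 library left out. For morphine against saline, Adrb1 was 0.043 with the astrocyte covariate (-0.13 without), and Adra2b (0.51) was -0.551 with the replicate block, -0.624 with the astrocyte covariate and -0.123 to 2.159 with 1 library left out. For the knockdown group against the saline group, Adra2b (-0.23) was 1.876 with limma voom and -0.704 to 1.412 with 1 library left out. Adra2b had no value under the stricter filter or with the compared groups only, and its counts near 0 limit every statement on it. The Adra1a level moved to 3.8 CPM per kb with the longest coding transcript as length, and that of Adrb1 to 10.5 (9.2 with merged exons).

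Same-numbered libraries of different groups were not shown to be paired, and pairing was not tested. Their deviations had correlations of -0.059 to 0.219, beside -0.307 to 0.251 for libraries with different numbers. Of the same-numbered pairs, 5 of 9 were over 0.1, and 6 of 12 libraries were closest to one with their own number. The replicate block changed no receptor call.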
